A study of Mus musculus with 18 samples.

Results

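The *Tent5* genes (formerly *Fam46*) encode non-canonical poly(A) polymerases, and 3 of them, *Tent5a*, *Tent5b* and *Tent5c*, were followed here out of the 24100 genes listed in each of 2 count tables. They were found by matching the Entrez gene identifiers of the tables to these symbols. The cells were C3H/10T1/2 (CCL-226), a mouse line of mesenchymal progenitor cells (MPCs). The 3 groups compared were *Atrx* wild-type cells (WT), the *Atrx* knockout (KO) clone G7 made with the guide sg5, and the *Atrx* KO clone B10 made with the guide sg6. Each KO group was a single clone, and by the study's methods the WT line had received the Cas9 vector without a guide and all lines grew without differentiation cues. Each group had 3 polyA-selected and 3 rRNA-depleted libraries, 18 libraries in 6 groups. Nothing in the labels said that the libraries of a group came from separate cultures, so p-values measure the spread between these libraries, which may be technical.

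TENT5 proteins work in the cytoplasm, where they lengthen the poly(A) tails of chosen mRNAs, in particular those translated at the endoplasmic reticulum into secreted proteins. TENT5A acts in bone-forming cells, where its substrates include the mRNAs of type I collagen, and its loss causes a form of the brittle bone disease osteogenesis imperfecta. TENT5C is best known from B and plasma cells, where it extends immunoglobulin mRNAs and is often lost in multiple myeloma, and TENT5D is a testis gene needed for male fertility. ATRX, the protein removed here, is a chromatin remodeller that keeps heterochromatin silent. The comparison asked how the RNA of each *Tent5* gene stood in MPCs with and without *Atrx*. RNA levels were measured, not tail lengths.

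The *Tent5* genes are related, and a stretch of their coding sequence shows both how alike they are and where reads can tell them apart. The lines below give 60 coding bases of each gene on the mm10 (GRCm38) assembly in GENCODE annotation. Capitals mark the 44 bases that are identical in all 3 genes. The *Tent5a* stretch spans the junction of exons 2 and 3 at chr9:85325180-85326264 on the minus strand. The *Tent5b* stretch lies in exon 2 at chr4:133486324-133486383 on the plus strand. The *Tent5c* stretch lies in exon 2 at chr3:100472980-100473039 on the minus strand.
Tent5a: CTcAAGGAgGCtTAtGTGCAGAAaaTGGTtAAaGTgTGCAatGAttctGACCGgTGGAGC
Tent5b: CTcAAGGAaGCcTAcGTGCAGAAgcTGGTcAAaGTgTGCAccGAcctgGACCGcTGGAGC
Tent5c: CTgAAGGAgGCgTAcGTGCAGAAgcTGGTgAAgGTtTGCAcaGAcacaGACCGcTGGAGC

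Of the 16 bases that differ between these stretches, 12 are at the third position of a codon, and the longest run shared by all 3 genes is 8 bases. Over the whole coding sequence 65.2% of aligned bases were identical between *Tent5a* and *Tent5b*, 69.3% between *Tent5a* and *Tent5c* and 63.2% between *Tent5b* and *Tent5c*. No word of 31 bases was shared between any of the *Tent5* genes in their annotated transcripts. *Tent5a* and *Tent5b* shared no such word with any other gene either, and *Tent5c* shared 22 of its 6068 words. Words were compared in the direction of each transcript alone, so overlap with antisense transcripts was not searched. *Tent5a* lies at chr9:85320439-85327348 with 5703 exonic bases, *Tent5b* at chr4:133480132-133487938 with 2287, and *Tent5c* at chr3:100451628-100489324 with 6097. *Tent5b* overlaps an annotated antisense gene, *Gm13257*, on the opposite strand. Since the sources used here do not say that strand was used in counting, reads of that pair may not be told apart.

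Total counts ran from 27544833 to 235346363 in the polyA libraries, with the sg5 clone deepest at 161036799 and more, and from 20135336 to 33187136 in the rRNA-depleted libraries. The targeted gene checked the labels: *Atrx* fell in both clones in the polyA libraries, where WT had 300.3 ± 26.0 CPM (counts-per-million, SD, n = 3), sg5 127 ± 12.2 and sg6 131 ± 9.68, with adjusted p = 5.04e-05 and 5.15e-05 in edgeR. In the rRNA-depleted libraries it had 215 ± 20.2 CPM in WT, 82.1 ± 26.4 in the sg5 clone and 86.6 ± 12.7 in the sg6 clone, with adjusted p = 0.00138 and 0.00227 in edgeR. Of 8 mesenchymal markers, 7 were above 1 CPM in every library of both kinds, and their summed level in the polyA libraries was 20055 to 22891 CPM in WT. The sg5 clone had 22932 to 23503 CPM and the sg6 clone 27709 to 30530. The exception was *Thy1*, a progenitor surface marker, which had 134 CPM in the sg6 clone against 0.997 in WT and 0.307 in the sg5 clone. Of 12 markers of leukocytes, endothelium, epithelium, osteoblasts and adipocytes, 11 stayed below 1 CPM in every library. The exception was *Adipoq*, the adipocyte hormone adiponectin, which reached 1.48 CPM in sg5 replicate 1. Of the 7 that could be tested in polyA libraries, *Pecam1*, an endothelial marker, passed the threshold in both clones, beside 7.66% of all genes. It had 0.340 CPM in WT, 0.136 in the sg5 clone and 0.152 in the sg6 clone, from 6 to 32 counts per library.

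*Tent5a* was expressed in WT MPCs and stood far lower in both *Atrx* KO clones. In the polyA libraries its level was 14.8, 16.6 and 21.4 CPM in WT replicates 1 to 3. It was 6.92, 2.49 and 2.49 CPM in the sg5 clone. It was 1.04, 0.964 and 2.22 CPM in the sg6 clone. All 6 KO libraries lay below all 3 WT libraries. The sg5 libraries lay above the sg6 libraries, with 2.49 CPM the lowest in sg5 and 2.22 the highest in sg6. The share of all genes with such a split between the clones was not counted. Replicate 1 of sg5 was the KO library nearest to WT. CPM is given after scaling by TMM, which evens out library size and composition.

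The polyA log2 fold change was -2.15 ± 0.45 (SE) in sg5, or 4.45-fold lower than WT, and -3.66 ± 0.49 in sg6, or 12.6-fold lower. Of the tested genes, 473 of 15480 had a lower log2 fold change than *Tent5a* in sg5, and 258 in sg6. The gene family was chosen by these polyA differences, so they are a description without a test. A fall of more than 2-fold with adjusted p below 0.05 in both clones was met by 5.48% of the genes, and 13.9% had every KO library below every WT library. Without sg5 replicate 1 the sg5 log2 fold change was -2.83. Fewer cells expressing a gene and less RNA per cell cannot be told apart in these bulk samples.

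The rRNA-depleted libraries, separate libraries of the same lines, showed *Tent5a* low in both clones as well. The labels do not say whether both kinds of library came from separate cultures. The rRNA-depleted p-values may therefore not be independent of the polyA differences by which the family was chosen. WT replicates had 11.7, 8.59 and 12.8 CPM, from 233 to 460 counts each. The sg5 libraries had 3.96, 1.28 and 0.850 CPM, from 22 to 103 counts. The sg6 libraries had 1.51, 0.596 and 1.36 CPM, from 16 to 35 counts. Every KO library again lay below every WT library, which held for 8.61% of the 13303 genes tested, while the clones overlapped each other.

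The *Tent5a* log2 fold change was -2.43 ± 0.47 in sg5, a 5.37-fold fall, with adjusted p = 0.00988 in edgeR over all genes and transposable element loci. In sg6 it was -3.26 ± 0.50, a 9.61-fold fall, with adjusted p = 0.00196. Such a fall in both clones was met by 2.62% of genes, with 4.31% of genes lower in sg5 and 3.59% lower in sg6. The sg5 call missed the threshold without WT replicate 3, at adjusted p = 0.0510 in edgeR. Without sg5 replicate 1 the sg5 log2 fold change was -3.35.

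**Figure D1:**
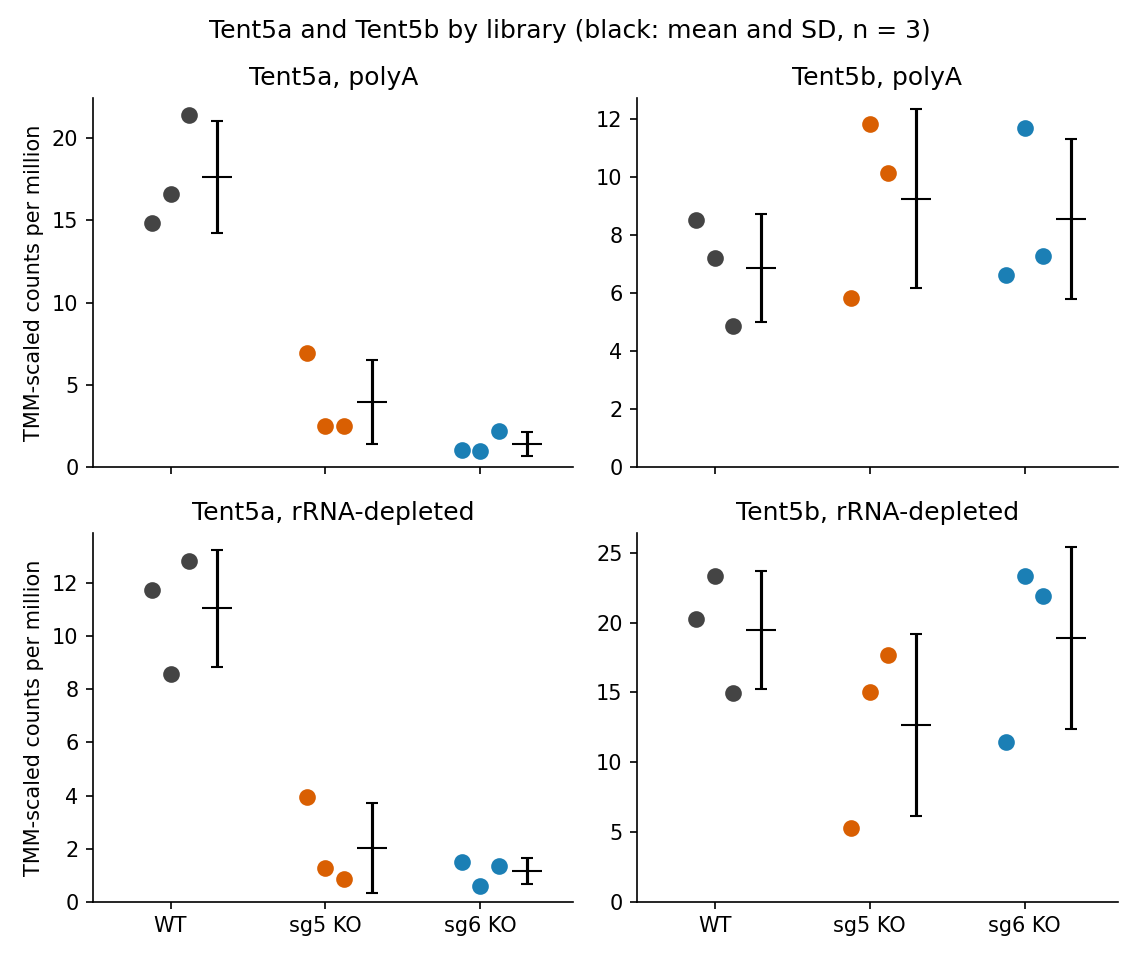
Each point is 1 library and the y axis is CPM scaled by TMM, starting at 0, with *Tent5a* on the left, *Tent5b* on the right, polyA above and rRNA-depleted below, and the black bar giving the mean and SD of 3 libraries. *Tent5a* lay at 14.8 to 21.4 CPM in polyA WT libraries and at 0.964 to 6.92 in KO libraries, while the *Tent5b* groups overlapped in every panel.

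The clones were then set against each other. *Tent5a* averaged 3.97 ± 2.56 CPM in sg5 and 1.41 ± 0.705 in sg6 in the polyA libraries (SD, n = 3), a log2 difference of 1.501 ± 0.46 (SE). This difference did not pass in edgeR, with adjusted p = 0.122, whereas DESeq2 gave adjusted p = 0.0107. It ran from 0.84 without sg5 replicate 1 to 1.98 without sg6 replicate 3, and was 0.66 without replicate 1 of every group. In the rRNA-depleted libraries the means were 2.03 ± 1.69 and 1.15 ± 0.489 CPM, and the log2 difference of 0.84 ± 0.50 did not pass, at adjusted p = 0.717 in edgeR. Between the clones 2.61% of genes passed the threshold in the polyA fit and 1.48% in the rRNA-depleted fit.

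Replicate 1 carried much of the spread within sg5. Its *Tent5a* level was 2.78 times the lowest sg5 library in polyA and 4.66 times in rRNA-depleted libraries. In WT the highest library was 1.44 times the lowest in polyA and 1.49 times in rRNA-depleted libraries. The same sg5 replicate 1 had the highest *Adipoq*, at 1.48 CPM in polyA against 0.205 and 0.191 in the other sg5 libraries, and 1.42 against 0.111 and 0.0773 in rRNA-depleted libraries. *Plin1*, the other adipocyte marker of the list, was near 0 in all libraries. It reached at most 0.0253 CPM in polyA and 0.0557 CPM in rRNA-depleted libraries. The summed level of all 12 markers of other cell types in polyA libraries ran from 1.12 to 1.67 CPM for WT, from 1.16 to 2.49 for sg5 and from 0.799 to 1.29 for sg6. In rRNA-depleted libraries it ran from 0.479 to 0.640, from 0.425 to 2.42 and from 0.186 to 1.16 in the same order, with *Ibsp*, the osteoblast matrix gene, at 0 throughout. Whether such cells were present, and whether they had a part in the *Tent5a* level, was not tested.

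*Tent5b*, a close relative of *Tent5a*, overlapped between WT and KO cells in both kinds of library, and its tested differences did not pass. In the polyA libraries WT had 8.52, 7.21 and 4.87 CPM. The sg5 clone had 5.83, 11.8 and 10.1 CPM. The sg6 clone had 6.64, 11.7 and 7.28 CPM. The 3 groups overlapped, and the log2 difference from WT was 0.44 ± 0.32 in sg5 and 0.32 ± 0.32 in sg6, given without a test as above.

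In the rRNA-depleted libraries *Tent5b* had 20.2, 23.3 and 14.9 CPM in WT. It had 5.31, 15.04 and 17.7 CPM in sg5. It had 11.4, 23.4 and 21.9 CPM in sg6. The groups overlapped, and replicate 1 was the lowest library of both KO groups. The log2 difference was -0.62 ± 0.37 in sg5 with adjusted p = 0.433 and -0.04 ± 0.36 in sg6 with adjusted p = 0.984 in edgeR. Between the clones it was 0.12 ± 0.31 in polyA, with adjusted p = 0.913, and -0.58 ± 0.37 in rRNA-depleted libraries, with adjusted p = 0.744 in edgeR.

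*Tent5c* was close to the limit of detection in every group and was not tested, because it did not pass the filter on low counts in either kind of library. The polyA libraries held 3, 6 and 4 counts in WT, 6, 4 and 7 in sg5 and 3, 0 and 0 in sg6. The sg5 counts came from the deepest libraries, so that WT stood at 0.0686 to 0.105 CPM, above sg5 at 0.0174 to 0.0432 and sg6 at 0 to 0.0444. Every polyA KO library thus lay below every WT library, which held for 13.9% of the genes tested. The WT values rested on 3 to 6 counts each. The rRNA-depleted libraries held 2, 1 and 0 counts in WT, 2, 0 and 0 in sg5 and 1, 0 and 1 in sg6, and the groups overlapped. A count of 0 allows a level of up to 0.0533 CPM in polyA sg6 replicate 3 and up to 0.167 CPM in the shallowest rRNA-depleted library, counting error only. *Tent5d*, the testis paralog, had 0 counts in all 6 WT libraries and at most 3 in any KO library.

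Dividing CPM by exonic length allowed the genes to be set beside each other within a library. In polyA WT libraries *Tent5a* and *Tent5b* were level, at 3.09 ± 0.596 and 3.003 ± 0.809 CPM per kb (SD, n = 3), and *Tent5a* was the higher in 1 of 3 libraries. In the sg5 clone *Tent5b* stood at 4.05 ± 1.35 CPM per kb against 0.695 ± 0.449 for *Tent5a*. In the sg6 clone it stood at 3.74 ± 1.21 against 0.247 ± 0.124. *Tent5b* was the higher of the pair in all 6 polyA KO libraries, by 2.10 to 11.9 times in sg5 and 8.18 to 30.3 times in sg6.

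In rRNA-depleted libraries *Tent5b* was already the higher in WT, at 8.52 ± 1.85 CPM per kb against 1.94 ± 0.384 for *Tent5a*. It stood at 5.54 ± 2.85 against 0.356 ± 0.296 in sg5 and 8.26 ± 2.85 against 0.202 ± 0.0857 in sg6. *Tent5c* was the lowest of the 3 in all groups, at 0.0143 CPM per kb in polyA WT and 0.00680 in rRNA-depleted WT. The order of the members was therefore *Tent5b*, *Tent5a*, *Tent5c* in every group except polyA WT, where the first pair did not differ beyond their spread. The tables were counted and normalised separately, so no test was made across them.

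**Figure D2:**
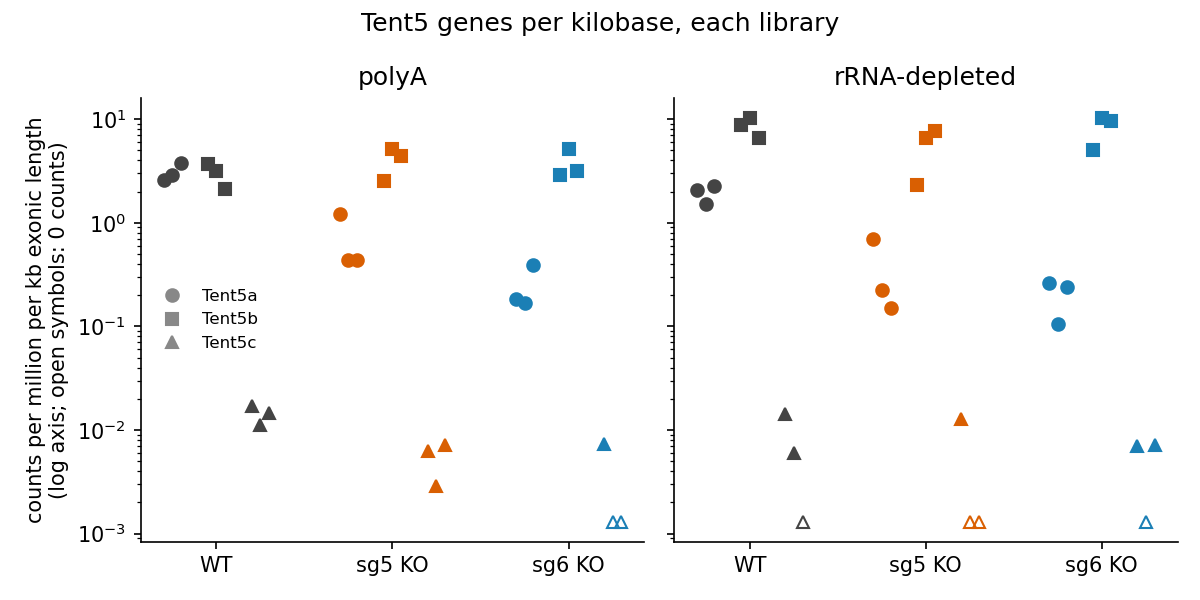
Each symbol is 1 library, with CPM per kb of exonic length on a log axis for *Tent5a* (circles), *Tent5b* (squares) and *Tent5c* (triangles), polyA on the left and rRNA-depleted on the right, and open symbols for 0 counts drawn at the bottom of the axis. *Tent5a* and *Tent5b* overlap in polyA WT, and *Tent5a* drops below *Tent5b* in all KO libraries.

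No gene of the wider poly(A) tail machinery passed the threshold in both clones. These genes were taken from 6 lists, namely other terminal nucleotidyltransferases, canonical poly(A) polymerases, cleavage and polyadenylation factors, poly(A)-binding and LARP proteins, deadenylases with their cofactors, and partners of TENT5 proteins. Of 59 genes, 58 were tested in polyA and 57 in rRNA-depleted libraries, and 0 passed the threshold of more than 2-fold with adjusted p below 0.05 in both clones in edgeR. The count was also 0 in DESeq2 and at an unadjusted p below 0.05 with the same limit on size. The share over all genes was 7.66% in polyA and 3.98% in rRNA-depleted libraries. The median log2 fold change of the lists was 0.06 in sg5 and 0.05 in sg6 in polyA, beside -0.0024 and -0.0061 over all genes, and the values ran from -0.65 to 0.60 and from -0.77 to 0.82. In rRNA-depleted libraries the medians were 0.11 and 0.05, beside 0.08 and 0.04 over all genes.

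Small differences were measured for some of these genes. Adjusted p below 0.05, with no limit on size, was met in polyA by 14 of 58 genes in sg5, beside 27.0% of all genes, and by 25 of 58 in sg6, beside 30.7%. In rRNA-depleted libraries it was met by 2 and 1 of 57 genes, beside 10.7% and 7.58%. Among the named genes, *Tent2* (GLD2), a cytoplasmic poly(A) polymerase, rose in polyA sg6 from 44.3 ± 4.40 to 62.3 ± 5.11 CPM, by 0.49 ± 0.10 on the log2 scale, with adjusted p = 0.00425 in edgeR. *Tent4b* (PAPD5), a nuclear partner of the RNA exosome, rose in sg5 from 36.5 ± 2.55 to 49.9 ± 1.97 CPM, by 0.45 ± 0.08, with adjusted p = 0.00363 in edgeR. In the other clone *Tent2* differed by 0.24 ± 0.09 (adjusted p = 0.0900) and *Tent4b* by 0.25 ± 0.08 (adjusted p = 0.0462) in edgeR. Between the clones neither difference passed, at adjusted p = 0.205 for *Tent2* and 0.232 for *Tent4b* in edgeR. *Papola*, the main nuclear poly(A) polymerase, rose from 161 ± 17.4 CPM to 216 ± 10.5 with sg5 and 214 ± 14.6 with sg6, with adjusted p = 0.0108 and 0.0107 in edgeR. *Tent4a* differed from WT by 0.08 ± 0.12 in sg5 and 0.36 ± 0.12 in sg6.

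In the rRNA-depleted libraries *Tent2*, *Tent4b*, *Papola* and *Tent4a* had an adjusted p above 0.05 in edgeR. *Tent2* differed there by 0.43 ± 0.14 in sg6, close in size to polyA, with adjusted p = 0.151 over genes and transposable element loci and 0.0283 in a fit of genes alone. *Tent4b* differed by 0.18 ± 0.16 in sg5, and *Papola* by 0.39 ± 0.17 in sg5 and 0.42 ± 0.17 in sg6. The lowest values in polyA belonged to *Tut4*, a terminal uridylyltransferase, at -0.77 ± 0.11 in sg6, and the highest to *Larp4b*, an mRNA-binding protein, at 0.82 ± 0.07 in sg6. In rRNA-depleted sg6 libraries *Tut4* and *Larp4b* differed by -0.75 ± 0.19 and 0.66 ± 0.13, with adjusted p = 0.0578 and 0.00975 in edgeR. Both were picked out after their values were seen. The partners *Fndc3a* and *Fndc3b*, which hold TENT5 proteins at the endoplasmic reticulum, stayed within 2-fold of WT, with polyA log2 differences in sg6 of -0.42 ± 0.14 and 0.48 ± 0.14.

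**Figure D3:**
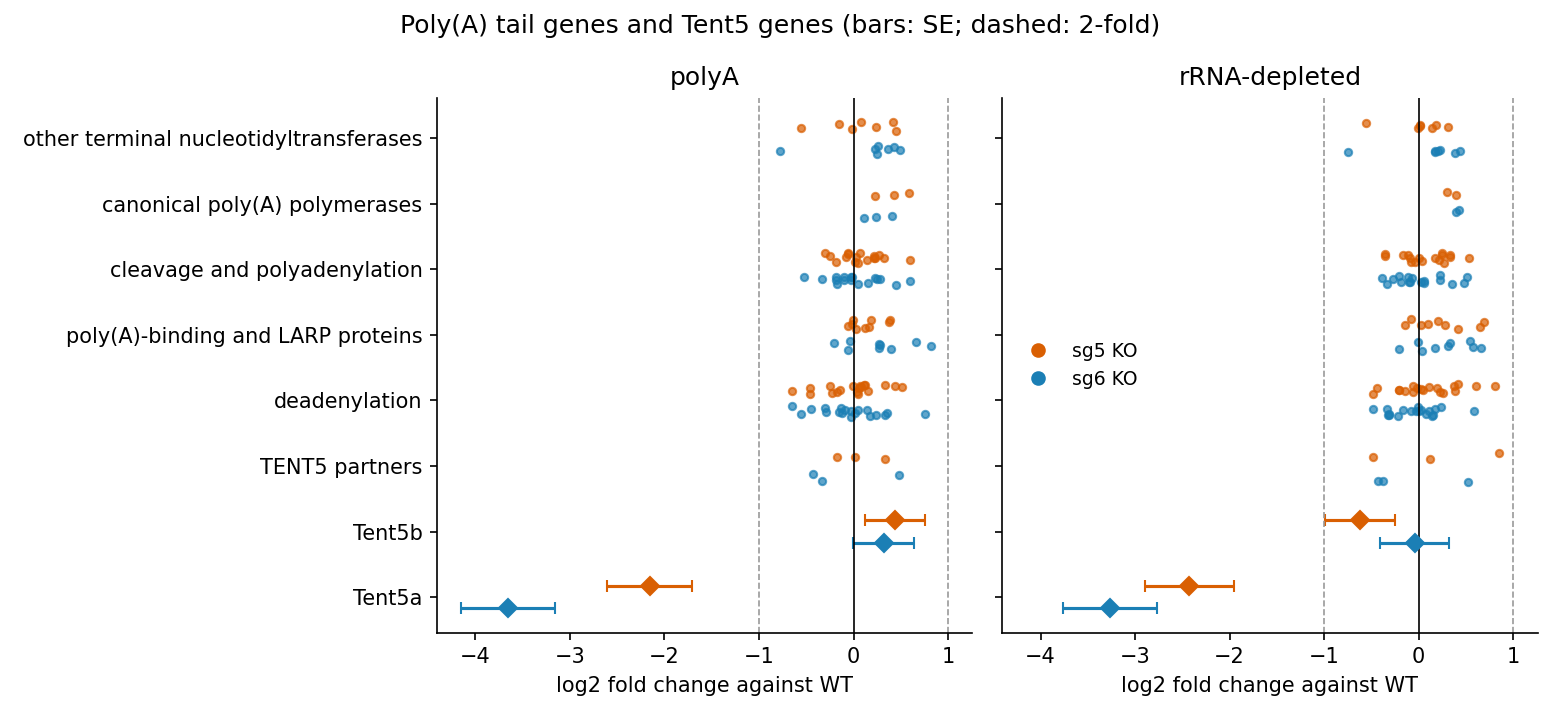
The x axis is the log2 fold change against WT, with 1 row for each list of poly(A) tail genes and for *Tent5b* and *Tent5a*, sg5 in orange and sg6 in blue, dots for single genes, diamonds with SE bars for the *Tent5* genes and dashed lines at 2-fold. The list genes lie within the dashed lines in both panels and *Tent5a* lies between -2.15 and -3.66.

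Type I collagen, whose mRNAs are known TENT5A substrates in bone, showed no fall in the clones that passed the test. *Col1a1* had 5719 ± 351 CPM in polyA WT libraries, 5773 ± 784 in sg5 and 7799 ± 1188 in sg6, a log2 difference of 0.01 ± 0.14 and 0.45 ± 0.14. *Col1a2* had 6229 ± 290 CPM in WT against 6372 ± 413 with sg5 and 8004 ± 553 with sg6, a log2 difference of 0.03 ± 0.10 and 0.36 ± 0.10. In sg6 the adjusted p was 0.0417 for *Col1a1* and 0.0228 for *Col1a2* in edgeR, with both rises under 2-fold. Leaving out single libraries raised it above 0.05 for *Col1a1* without any 1 of the WT replicates, sg5 replicate 3, or sg6 replicate 1 or 2, to 0.156 at most. It did so for *Col1a2* without WT replicate 1 or 2 or sg6 replicate 1 or 2, to 0.0944 at most. With the 2 groups alone it was 0.0611 and 0.0572, and without replicate 1 of every group 0.0723 and 0.0900, while thinning raised that of *Col1a1* to 0.0523. In rRNA-depleted libraries *Col1a1* had 260 ± 96.8, 364 ± 362 and 288 ± 115 CPM in WT, sg5 and sg6, with adjusted p = 0.736 and 0.958 in edgeR. *Col1a2* had 1035 ± 240, 1272 ± 664 and 1111 ± 157 CPM there.

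Of 20 genes tied to osteogenesis imperfecta, 20 were tested in polyA and 18 in rRNA-depleted libraries. The single gene past the threshold in both clones was *Sp7* (osterix), a transcription factor of osteoblasts, in polyA. The share over all genes was 7.66% in polyA and 3.98% in rRNA-depleted libraries. Its level was low in all groups, with 0.378 ± 0.155 CPM in WT against 0.134 ± 0.0423 for sg5 and 0.128 ± 0.0768 for sg6. The log2 fold change was -1.46 ± 0.44 and -1.58 ± 0.51, with adjusted p = 0.0375 and 0.0425 in edgeR. The call held in 3 of 9 fits that each left out a library, for either clone. It was lost in both without WT replicate 2 or 3, sg5 replicate 2 or 3 or sg6 replicate 2, in sg5 also without its replicate 1 and in sg6 also without its replicate 1. The highest adjusted p was that without WT replicate 3, at 0.148 in sg5 and 0.135 in sg6 in edgeR, with log2 fold changes of -1.09 and -1.21. The smallest fall in sg6 was -1.16, without sg6 replicate 1. *Sp7* was too low to be tested in rRNA-depleted libraries.

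The genes around the *Tent5* loci were examined next. Of the 3 nearest protein-coding genes on each side, 14 of 18 were tested in polyA and 15 in rRNA-depleted libraries, and 2 passed the threshold in both clones in each kind, beside the 7.66% and 3.98% of all genes given above. These were *Elovl4* and *Trnp1*. *Elovl4*, an elongase of very long fatty acids, lies 1514 kb from *Tent5a* and fell from 2.63 ± 0.642 CPM in polyA WT to 1.22 ± 0.225 with sg5 and 0.0958 ± 0.0200 with sg6. The log2 fold change was -1.10 ± 0.22 and -4.74 ± 0.30, with adjusted p = 0.00668 and 1.15e-05 in edgeR. In rRNA-depleted libraries it was -2.16 ± 0.52 and -4.33 ± 0.64, with adjusted p = 0.0340 and 0.00151. The sg5 fall was under 2-fold in polyA without WT replicate 1 (-0.92) or sg5 replicate 3 (-0.99), and missed the threshold in rRNA-depleted libraries without WT replicate 2 or 3, sg5 replicate 2 or 3 or sg6 replicate 3. The other 5 tested neighbours of *Tent5a*, including the nearest on each side, *Ibtk* at 360 kb and *Bckdhb* at 1196 kb, were within 2-fold of WT. *Bckdhb*, a subunit of the enzyme complex that breaks down branched-chain amino acids, was nevertheless lower in both clones. Its log2 fold change was -0.79 ± 0.11 in sg5 and -0.54 ± 0.11 in sg6 in polyA, with adjusted p = 0.000923 and 0.00574 in edgeR. In rRNA-depleted libraries it was -0.96 ± 0.21 and -0.87 ± 0.21, with adjusted p = 0.0221 and 0.0446. *Bckdhb* was named after its values were seen. Adjusted p below 0.05, with no limit on size, was met in polyA by 27.0% of all genes in sg5 and 30.7% in sg6. In rRNA-depleted libraries these shares were 10.7% and 7.58%.

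*Trnp1*, a nuclear protein of neural progenitors, lies 3.16 kb from *Tent5b* and rose from 12.9 ± 3.48 CPM in polyA WT to 26.1 ± 2.41 with sg5 and 30.8 ± 3.87 with sg6. The log2 fold change was 1.02 ± 0.18 and 1.26 ± 0.18 in polyA, and 1.31 ± 0.29 and 1.27 ± 0.29 in rRNA-depleted libraries. The adjusted p in edgeR was 0.00316 and 0.000910 in polyA and 0.0216 and 0.0301 in rRNA-depleted libraries. The sg5 rise was under 2-fold in polyA without WT replicate 2 or 3 or sg5 replicate 1, and at 0.94 after counts were thinned to the smallest library, and in rRNA-depleted libraries the calls were lost without WT replicate 2 or 3, and for sg6 also without sg6 replicate 1 or 3. *Tent5b*, its neighbour, overlapped between the groups in both kinds. Of the tested neighbours of *Tent5c*, 0 of 4 in polyA and 0 of 5 in rRNA-depleted libraries passed in edgeR, and their values stayed within 2-fold of WT.

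The genes whose pattern was most like that of *Tent5a* were ranked by the lower of their Pearson correlations with it over 9 polyA and over 9 rRNA-depleted libraries, among 10820 genes. The points share libraries and groups, so the values describe the pattern and carry no test. The first 5 were *Gem*, a small GTPase, at 0.96, *Gm4951* at 0.96, *Apol9b*, an apolipoprotein L gene, at 0.96, *Mterf2*, a mitochondrial factor, at 0.96, and *Lratd2* at 0.96. Their WT means in polyA were 11.2, 8.08, 9.71, 14.6 and 16.8 CPM in that order, beside 17.6 for *Tent5a*. In sg5 they were 2.89, 1.86, 2.76, 8.28 and 1.05 CPM, and in sg6 1.36, 0.386, 1.28, 5.89 and 0.368. All 5 were lowest in sg6 and intermediate in sg5, like *Tent5a* itself, an order that their choice by likeness to it favours. *Mterf2* changed least, and *Lratd2* changed more than *Tent5a*. *Apol9b* has a near-identical copy, so its counts are uncertain.

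**Figure D4:**
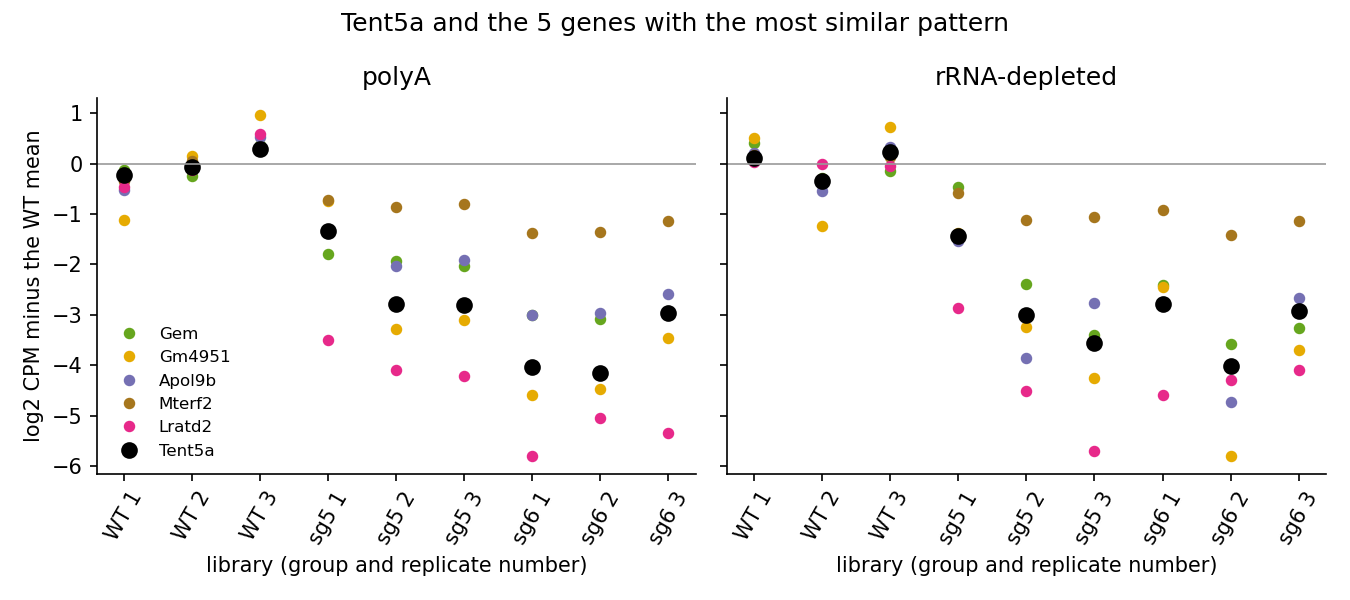
The y axis is log2 CPM minus the WT mean for each of 9 libraries on the x axis, polyA on the left and rRNA-depleted on the right, with *Tent5a* as large black points and the 5 most similar genes in colour. *Tent5a* and 4 of the genes drop by more than 1 log2 unit in sg5 libraries 2 and 3 and in all sg6 libraries, while *Mterf2* changes less.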

How the data were processed

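C3H/10T1/2 MPCs were profiled by polyA-selected and by rRNA-depleted RNA-seq, 3 libraries for each of WT, sg5 and sg6. For the polyA table the authors estimated transcript abundance with Salmon (0.8.2 in the submitters' processing notes) on mm10 known genes and deposited expected counts per gene, already whole numbers. For the rRNA-depleted table the authors aligned reads with STAR 2.27.10a to mm10 and deposited counts per gene and per transposable element locus from TElocal. Strand was not given in the sources used here. The rRNA-depleted titles name the clones alone, and G7 and B10 were joined to sg5 and sg6 through the polyA titles.

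The 18 libraries were fitted by kind with edgeR 4.0.16 (R 4.3.3): filterByExpr (minimum count 10, total 15), TMM, and the quasi-likelihood test over the 3 groups, with 15480 genes tested in polyA and 56086 features, 13303 of them genes, in rRNA-depleted libraries. P-values were adjusted by Benjamini-Hochberg over all features tested, and the threshold was an adjusted p below 0.05 with a log2 fold change beyond 1. The standard error is the log2 fold change over the square root of F. The fitting code was tested on simulated data. DESeq2 1.42.0 was an alternative. Total counts per library of 20135336 to 235346363 limit precision for genes with few counts, and floors (3 counts) cover counting error only. No libraries held identical values.

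Symbols came from RefSeq (24045 of 24100 identifiers matched, GRCm38.p6), and sequences and exonic lengths from GENCODE on GRCm38, aligned with mafft 7.526. Neighbours came from RefSeq. Named were the 3 *Tent5* genes, *Atrx*, list genes past the threshold in both clones, *Col1a1*, *Col1a2*, *Tent5d*, *Tent2*, *Tent4a*, *Tent4b*, *Papola*, neighbours past the threshold and the 5 genes most like *Tent5a* (average log2 CPM of at least 1 in both kinds). The genes and lists were chosen with earlier results of these data known.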

Additional observations from a re-analysis of the deposited data

Results flagged for a closer look

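Results are given here where the 2 KO clones differed from each other in a direct test in edgeR. *Elovl4*, a neighbour of *Tent5a*, was higher in sg5 than in sg6 in polyA libraries by 3.64 ± 0.30 on the log2 scale (adjusted p = 0.000163), with 1.22 and 0.0958 CPM, and by 2.17 ± 0.72 in rRNA-depleted libraries, where the difference did not pass (adjusted p = 0.400). *Thy1* was lower in sg5 than in sg6 in both kinds, with a log2 difference of -8.76 ± 0.20 in polyA (adjusted p = 3.29e-08) and -8.25 ± 0.43 in rRNA-depleted libraries (adjusted p = 3.76e-07), with mean levels of 0.307 and 134 CPM in polyA.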

How the results depend on the processing

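Of 134 alternative values for the 8 tested *Tent5* comparisons, 124 kept their direction and their side of the threshold, most of them for differences that did not pass. The count of tail genes past the threshold in both clones stayed at 0 under all 33 alternatives. The polyA values against WT carry no test, and 62 of 64 moved by less than 1 SD between replicates. Leaving out single libraries moved the *Tent5a* log2 fold change in sg5 between -2.83 and -1.90 in polyA and between -3.35 and -2.02 in rRNA-depleted libraries, where the call was lost without WT replicate 3. Without replicate 1 of every group, an alternative chosen after seeing the data, the polyA value was -2.93. The polyA difference of sg5 and sg6 for *Tent5a* passed in DESeq2 alone, at 1.51. Its rRNA-depleted counterpart ran from -0.13 to 1.22 over single left-out libraries, and reversed without sg5 replicate 1. For *Tent5b* the polyA difference of the clones ran from -0.10 to 0.42, and the rRNA-depleted sg6 value from -0.21 to 0.24, with 0.0089 after thinning and 0.26 without replicate 1 of every group. The *Tent5b* sg5 value ran from 0.22 to 0.68 in polyA and from -0.94 to -0.22 in rRNA-depleted libraries over single left-out libraries. Without replicate 1 of every group its polyA values were 0.85 ± 0.28 in sg5 and 0.63 ± 0.28 in sg6. The cause was not tested. Depth limits *Tent5c*: unfiltered edgeR fits gave log2 fold changes of -1.34 in sg5 and -2.29 in sg6 in polyA. In rRNA-depleted libraries these fits gave -0.42 in sg5 and -0.40 in sg6. The other alternatives gave *Tent5c* no value.

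For the other named genes the alternatives were applied after seeing the data: 571 values kept their side of the threshold (more than 2-fold with adjusted p below 0.05), 31 lost it and 22 reversed. The reversed ones were not called. In sg5, *Col1a1* gave -0.0022 after thinning and -0.064 to 0.12 over single left-out libraries in polyA, and -0.66 to 0.99 in rRNA-depleted libraries. In sg6 it gave -0.055 to 0.48 there. *Col1a2* gave -0.14 to 0.62 in sg5 and -0.0089 to 0.31 in sg6 in rRNA-depleted libraries. *Tent4a* in sg5 gave -0.032 after thinning in polyA. In rRNA-depleted libraries it gave 0.041 with median-of-ratios factors, 0.041 in DESeq2, 0.037 without a filter, 0.0045 with 2 groups alone, 0.16 without replicate 1 of every group and -0.26 to 0.20 over single left-out libraries.

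With the replicate number as a block (replicate block), the rRNA-depleted *Tent5a* values were -2.61 in sg5 (adjusted p = 0.00113) and -3.35 in sg6 (adjusted p = 0.000291) in edgeR, and no call of a *Tent5* gene or tail list changed. Of 9 pairs of libraries with the same number in different groups, 8 had deviations correlated above 0.1 in each kind. The lowest values were 0.0395 in polyA and -0.323 in rRNA-depleted libraries. The mean was 0.452 and 0.357 in the same order. For pairs with different numbers it was -0.213 and -0.176, and the highest such pair reached 0.376 and 0.689. Deviations from a group mean sum to 0 within the group. The negative means therefore follow largely from the method and add no evidence. Libraries with the same number thus varied together in most pairs, which the main fits did not take into account. The labels do not say what these libraries shared.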
